A study of Mus musculus with 7 samples.

Results

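The 8 genes described here encode inhibitory receptors of immune cells, also called checkpoint receptors, and were chosen by name: Pdcd1 (PD-1), Havcr2 (TIM-3), Lag3, Tigit, Ctla4, Cd160, Btla and Vsir (VISTA). All 8 were found once each among the 32285 genes of the count tables. They were measured by droplet single-cell RNA-seq in leukocytes (CD45+ and DRAQ7-, so live by dye exclusion) sorted on day 21 from the tumour side of the brain of wild-type female mice aged 8 to 9 weeks. The tumour was GL261, a transplanted mouse glioma line. The 4 groups were untreated (1 library, 2 mice), PT2385 (2 libraries, 4 mice), immune checkpoint blockade with antibodies to PD-1 (clone RPM1-14) and TIM-3 (clone B8.2C12), here ICB (2 libraries, 4 mice), and PT2385 with ICB (2 libraries, 4 mice). PT2385 inhibits the transcription factor HIF-2α and was given at 10 mg/kg from day 7. Each library pooled 5000 cells from each of 2 mice, so a library and not a mouse is the replicate, and nothing in the counts separates the mice of a pool. The labels describe a vehicle and isotype control antibodies without saying which mice received them, and a further untreated pool was not analysed here. Pdcd1 and Havcr2 encode the proteins that the antibodies bind.

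Checkpoint receptors are surface proteins that dampen activation of the cell that carries them. PD-1 and CTLA-4 restrain T cells through the ligands PD-L1 and PD-L2 and through CD80 and CD86, LAG-3 binds MHC class II among other ligands, TIGIT binds the poliovirus receptor, and BTLA and CD160 both bind the TNF receptor family member HVEM. TIM-3 and VISTA are carried by myeloid cells as well as by T cells. In tumours, T cells under lasting antigen exposure carry several of these receptors together, a state called exhaustion, and brain tumours add resident microglia and infiltrating macrophages as further carriers.

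3 promoters are shown because they belong to the genes of both antibody targets and to a gene found mostly in myeloid cells here, a choice made after the levels were seen. Each line gives the 250 bases before the RefSeq transcript start on assembly GRCm38.p6, 5′ to 3′ on the gene's strand. Capitals mark GGAAA, the core bound by NFAT factors, and GAGGAA, the core bound by PU.1-type ETS factors, on either strand. The submitters' processing notes name GRCm39, a different build, so these coordinates serve only to place the printed sequence.
Pdcd1, chr1:94052554-94052803, minus strand: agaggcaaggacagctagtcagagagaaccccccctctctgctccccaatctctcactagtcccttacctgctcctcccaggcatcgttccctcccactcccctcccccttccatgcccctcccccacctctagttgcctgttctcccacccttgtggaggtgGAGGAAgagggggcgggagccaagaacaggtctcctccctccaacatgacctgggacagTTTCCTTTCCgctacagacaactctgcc
Havcr2, chr11:46454681-46454930, plus strand: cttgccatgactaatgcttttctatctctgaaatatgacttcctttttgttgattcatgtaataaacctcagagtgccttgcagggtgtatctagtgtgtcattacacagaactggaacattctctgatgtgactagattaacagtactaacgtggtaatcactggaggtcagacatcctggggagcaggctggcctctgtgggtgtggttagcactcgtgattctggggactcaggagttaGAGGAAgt
Vsir, chr10:60346601-60346850, plus strand: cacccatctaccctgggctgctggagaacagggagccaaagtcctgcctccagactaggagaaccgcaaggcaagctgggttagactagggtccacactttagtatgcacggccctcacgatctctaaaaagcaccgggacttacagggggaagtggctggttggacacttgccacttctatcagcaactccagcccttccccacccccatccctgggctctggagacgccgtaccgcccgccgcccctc
Pdcd1 held 2 matches to GGAAA, which share a run near the start, and 1 to GAGGAA. Havcr2 held 1 match to GAGGAA, 1 to TGTGGT (the RUNX core) and 1 to TGANTCA (the AP-1 site), and Vsir held none of the 4 motifs. Among all 32851 RefSeq promoter windows of this length in mouse, 55.57% held GGAAA, 23.25% GAGGAA, 14.05% TGTGGT and 6.749% TGANTCA, each searched on both strands. The windows come from RefSeq, which had an entry for 7 of the 8 genes in the table used (not Lag3).

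The libraries held 59839154 to 81960504 UMIs (unique molecular identifiers, 1 per captured transcript), and of 41033 barcodes, 40416 were kept with 300 or more genes and no more than 10% mitochondrial UMIs. Cells were placed in 15 classes by marker gates that contain none of the 8 receptors, and "-like" marks that a class rests on transcripts. A gate took 27775 cells (68.7%), of which 3254 were T-like. Pairs of libraries shared 2 to 17 barcodes. 1474 gated cells were choroid plexus-like, an epithelium, despite the CD45 sort, and their receptor values serve below as a background because that epithelium should lack T cell receptors. Their gate set no limit on myeloid markers, so this background can include droplets that also hold a myeloid cell. Median UMIs were 8036 in choroid plexus-like and 7966 in CD8 T-like cells. In 1 library, ICB pool 1, CD8 T-like cells stood apart: the naive and memory genes Tcf7 and Lef1 measured 182 and 406 CPM (UMIs scaled to a common total per library and class, here with TMM factors), against at most 61.1 and 127 CPM in any other library. The summed CD8 markers were 1176 CPM there and 1637 to 2286 CPM in the others.

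A large part of the receptor UMIs lay outside every gate. Ungated cells carried 52.2% of the Pdcd1 UMIs, 56.8% of the Ctla4 UMIs, 52.9% of Tigit, 46.1% of Lag3, 43.5% of Btla, 40.3% of Cd160, 37.9% of Havcr2 and 35.8% of Vsir. 2169 of the 7122 cells with at least 2 Cd3 UMIs were left out of the T gates because they also carried mononuclear myeloid markers at 15 or more per 10000 UMIs, with 98 of them less than 5 above that limit and 233 kept cells less than 5 below it. These cells held 25.0% of all Pdcd1 UMIs and 27.5% of all Ctla4 UMIs, and whether they are doublets, cells with engulfed or ambient RNA, or T cells was not tested. A further 1699 cells with at least 2 Cd3 UMIs were under the myeloid limit but met no single gate, and held 25.0% of the Pdcd1 UMIs. The values below therefore describe the cells that the gates took, not every cell with a receptor transcript.

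Pdcd1, the gene of PD-1, was a T cell transcript in these samples. Its mean level was 364 ± 96.4 CPM in CD8 T-like cells (SD, n = 7 libraries, from 221 through a median of 359.5 to 493), 311 ± 51.6 in conventional CD4 T-like cells, 274 ± 171 in gamma-delta T-like cells (n = 6) and 193 ± 56.0 in regulatory T-like cells. These 4 classes overlapped in their library ranges with their neighbours in this order. NK-like cells followed at 12.0 ± 2.67 CPM, with no overlap with regulatory T-like cells, and microglia-like cells had 5.93 ± 2.13 CPM. To compare shares of cells at equal depth, each cell with at least 3000 UMIs was thinned at random to 3000. Cells with fewer were left out of all thinned shares, so these are not shares of all gated cells. A Pdcd1 UMI was then found in 55.6% ± 13.1 of CD8 T-like cells (71.8% before thinning) and in 1.85% of NK-like cells. None of 1281 thinned choroid plexus-like cells had one, which allows a share of up to 0.234%, and before thinning 0.182% had one.

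Havcr2, the gene of TIM-3, was highest in cDC1-like and cDC2-like cells and was found in both myeloid and T-like cells. The means were 380.1 ± 58.9 CPM in cDC1-like cells (n = 7, 287 to 482), the cross-presenting dendritic cells, and 319.8 ± 62.7 CPM in cDC2-like cells (n = 6). The next class was separated from cDC2-like cells in every library: microglia-like cells had 191 ± 16.6 CPM. CD8 T-like cells had 179 ± 69.3 CPM (82.3 to 276) and monocyte/macrophage-like cells 142 ± 40.1 CPM, overlapping with microglia-like cells. Conventional CD4 and regulatory T-like cells had 121 ± 40.9 and 111 ± 31.4 CPM, and NK-like cells had 3.45 to 12.9 CPM. The other dendritic classes had lower means than these T-like classes, with 49.3 ± 20.9 CPM in plasmacytoid dendritic-like cells (n = 6) and 21.7 ± 11.8 CPM in migratory dendritic-like cells (n = 7). The thinned detection share was 59.2% in cDC1-like, 42.0% in microglia-like, 29.5% in CD8 T-like and 3.48% in choroid plexus-like cells, a mean raised by PT2385 pool 1 with 10 such cells and 10.0%. By number of transcripts the order was different from the order by level: monocyte/macrophage-like cells held 38.1% of all Havcr2 UMIs in the tables, microglia-like cells 11.4% and CD8 T-like cells 4.12%.

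Lag3, an MHC class II-binding receptor, was highest in microglia-like cells. Their mean was 256 ± 46.6 CPM (n = 7, from 199.9 through 243 to 323). Conventional CD4, regulatory and CD8 T-like cells followed at 183 ± 74.7, 174 ± 54.8 and 171 ± 59.6 CPM, and plasmacytoid dendritic-like cells, the interferon-producing dendritic cells, at 128 ± 19.8 CPM (n = 6). The library ranges of these 5 classes overlapped from one to the next, and every library of the plasmacytoid class was above every library of NK-like cells (36.8 ± 10.3 CPM). Monocyte/macrophage-like cells measured 2.72 to 13.2 CPM. Microglia-like cells held 32.2% of all Lag3 UMIs and CD8 T-like cells 8.29%. At equal depth 49.0% of microglia-like cells and 32.9% of CD8 T-like cells had a Lag3 UMI, against 4.93% of choroid plexus-like cells, where the same 10 cells had 20.0% and the other 4 libraries at most 2.60%.

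Tigit and Ctla4 were highest in regulatory T-like cells, the suppressive CD4 cells gated on Foxp3. Tigit measured 91.3 ± 22.7 CPM there (n = 7, 74.9 to 140.3), 59.1 ± 13.7 in conventional CD4 T-like, 51.4 ± 8.87 in CD8 T-like and 48.9 ± 10.4 in NK-like cells, with overlapping ranges. Gamma-delta T-like cells at 21.7 ± 10.4 CPM stood below NK-like cells in every library, and in no other class did the mean exceed 1.75 CPM. Ctla4 measured 2441 ± 212 CPM in regulatory T-like cells (2100.0 to 2713), with every library above every library of conventional CD4 T-like cells at 1223 ± 289.9 CPM. CD8 T-like cells had 820.3 ± 148 CPM and overlapped with conventional CD4 T-like cells. Ctla4 was found in 94.2% of thinned regulatory T-like cells and 2.77% of choroid plexus-like cells, and Tigit in 25.4% and in none of 1281.

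Cd160 and Btla, which share the ligand HVEM, lay in different classes. Cd160 measured 67.8 ± 19.5 CPM in NK-like cells (n = 7, 42.4 to 93.1), 57.8 ± 31.6 in gamma-delta T-like cells (n = 6) and 52.2 ± 9.96 in CD8 T-like cells, and was found in 11.2% of thinned NK-like and 0.031% of choroid plexus-like cells. Conventional CD4 T-like cells had a mean of 16.3 ± 15.1 CPM that varied between libraries from 2.27 to 39.4, on 133 UMIs in all. Btla measured 390.0 ± 23.5 CPM in cDC1-like cells (n = 7, 352 to 420.1), and every one of these libraries was above the B-like cells at 229.5 ± 94.9 CPM (n = 4). cDC2-like cells had 163 ± 57.2, migratory dendritic-like cells 145 ± 37.4, conventional CD4 T-like cells 112 ± 44.4 and CD8 T-like cells 24.5 ± 9.73 CPM. A Btla UMI was present in 60.4% of thinned cDC1-like cells and 0.161% of choroid plexus-like cells.

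Vsir, the gene of VISTA, was highest in microglia-like cells, followed by neutrophil-like and monocyte/macrophage-like cells, and was found in T-like cells as well. Microglia-like cells had 653 ± 80.2 CPM (n = 7, from 554 through 683 to 751), above the next class in every library. Neutrophil-like cells had 237 ± 45.6 CPM (n = 3), monocyte/macrophage-like cells 185 ± 19.3 and CD8 T-like cells 85.9 ± 13.4 CPM. Gamma-delta, regulatory and conventional CD4 T-like cells had means of 101.5, 99.4 and 96.5 CPM. Among dendritic classes the means were 89.1 CPM in plasmacytoid, 45.5 in cDC2-like, 45.1 in cDC1-like and 29.9 in migratory dendritic-like cells. The thinned share was 82.7% in microglia-like, 41.5% in monocyte/macrophage-like, 25.4% in CD8 T-like and 4.66% in choroid plexus-like cells. Microglia-like cells held 26.8% of all Vsir UMIs and monocyte/macrophage-like cells 32.7%. Of the 14 neighbouring pairs in the class order of each gene, 1 was free of overlap between libraries for Pdcd1, Havcr2, Lag3, Cd160, Btla and Vsir, 2 for Tigit and 3 for Ctla4. Levels are compared within a gene only, since the counts are of transcript ends and carry no correction between genes.

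**Figure D1:**
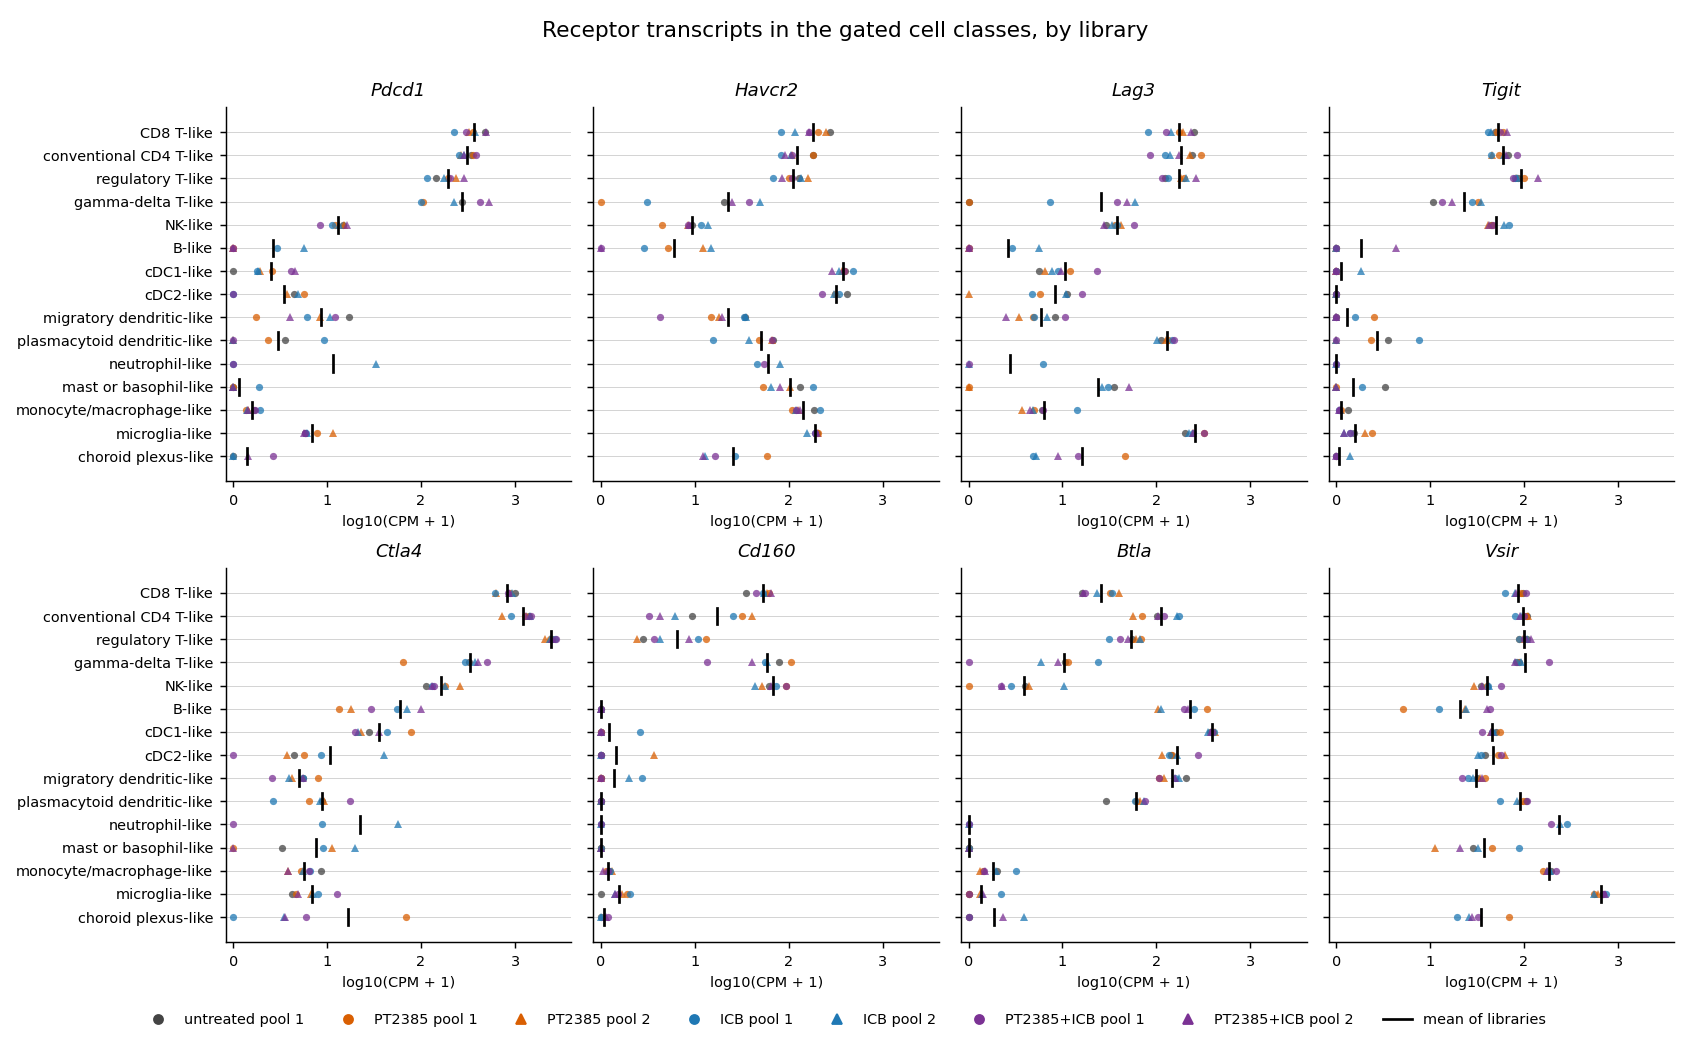
Level of each receptor gene (horizontal axis, log10 of CPM + 1) in 15 gated cell classes (vertical axis). Each point is a library with at least 10 cells of the class, coloured by treatment group, and the bar is the log10 of the mean of libraries. Pdcd1, Tigit and Ctla4 have their highest means in T-like rows, Havcr2 and Btla reach their right-most points in cDC1-like cells, and Lag3 and Vsir in microglia-like cells.

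5 pairs of related classes were tested with edgeR's quasi-likelihood test on counts summed per library and class, with the library as a block and Benjamini-Hochberg adjustment over all genes tested. In regulatory against conventional CD4 T-like cells 5 of 8 receptors passed, beside 24.6% of 9371 genes (13.4% higher, 11.2% lower). Ctla4 was higher by 0.98 ± 0.09 (log2 fold change ± SE, adjusted p = 1.79e-06) and Tigit by 0.56 ± 0.14 (adjusted p = 0.00693). Pdcd1 was lower at -0.80 ± 0.13 (adjusted p = 0.000413), Btla at -1.12 ± 0.24 (adjusted p = 0.00291) and Cd160 at -1.60 ± 0.40 (adjusted p = 0.00765). Cd160 rests on few UMIs and missed the threshold in 2 of 13 alternative analyses, with DESeq2 and without cells of high depth, with an adjusted p of at most 0.0755.

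In CD8 against conventional CD4 T-like cells 4 of 8 receptors passed, beside 26.7% of 10055 genes (12.7% higher, 13.9% lower). Cd160 was higher in CD8 T-like cells by 1.68 ± 0.31 on the log2 scale (edgeR adjusted p = 0.00127) and Havcr2 by 0.56 ± 0.13 (adjusted p = 0.00510). Btla was lower at -2.13 ± 0.25 (adjusted p = 3.51e-05) and Ctla4 at -0.52 ± 0.07 (adjusted p = 8.23e-05). Pdcd1 did not pass, with 0.24 ± 0.12 (adjusted p = 0.182), nor did Lag3 with -0.05 ± 0.14. Against NK-like cells, 6 of 8 receptors were higher in CD8 T-like cells and none lower, beside 39.0% of 10243 genes called (20.1% higher, 18.9% lower). The log2 differences were 4.87 ± 0.10 for Pdcd1, 4.23 ± 0.23 for Havcr2, 3.11 ± 0.36 for Btla, 2.38 ± 0.16 for Ctla4, 2.14 ± 0.20 for Lag3 and 1.14 ± 0.12 for Vsir. Tigit differed by 0.05 ± 0.15 and Cd160 by -0.35 ± 0.15, neither past the threshold (edgeR adjusted p = 0.821 and 0.0752).

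In microglia-like against monocyte/macrophage-like cells 5 of 8 receptors passed, beside 76.2% of 14751 genes (38.6% higher, 37.6% lower), a share above that of the receptors. Lag3 was higher in microglia-like cells by 5.27 ± 0.24 on the log2 scale (edgeR adjusted p = 1.78e-09) and Vsir by 1.37 ± 0.08 (adjusted p = 1.22e-08). Havcr2 differed by 0.01 ± 0.11 (adjusted p = 0.918). Pdcd1 (2.93 ± 0.29), Tigit (1.80 ± 0.51) and Btla (-1.59 ± 0.49) also passed, at mean levels of at most 5.93 CPM in either class. Without either PT2385 library 4 receptors were called, and without the untreated library 6. Calls over all genes were 10568 to 11048 with 1 library left out, against 11241 with all libraries, so these receptor counts are not read as a result. In cDC1-like against cDC2-like cells, which 4 libraries could test, 4 receptors passed the filter on low counts, and Btla was higher in cDC1-like cells by 1.45 ± 0.16 (adjusted p = 1.57e-05), beside 19.4% of 8157 genes (8.05% higher, 11.3% lower). Havcr2 differed there by 0.18 ± 0.14 (adjusted p = 0.408). Without ICB pool 2, 2 receptors were called. Calls over all genes were 1132 to 1378 with 1 library left out, against 1580 with all 4.

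The receptors were found together in single T cells. Among CD8 T-like cells thinned to 3000 UMIs, the share with 2 or more of the 8 receptors was 84.8% in the untreated library, 75.3% and 76.6% with PT2385, 49.1% and 76.6% with ICB, and 70.3% and 89.3% with both. ICB pool 1 was the lowest, and it also had the largest share with none, 22.8% (Wilson 95% interval 17.8 to 28.7, counting error only), against 2.34% to 10.7% in the other libraries. The mean share with 2 or more was 74.6% ± 12.9 in CD8 T-like cells, 69.2% ± 9.03 in conventional CD4 T-like cells and 76.3% ± 5.89 in regulatory T-like cells (SD, n = 7 each). It was 31.8% ± 11.6 in gamma-delta T-like cells (n = 6) and 12.9% ± 2.13 in NK-like cells (n = 7). 4 or more receptors were found in 23.1% ± 5.52 of CD8 T-like cells. A cell without a UMI may still hold the transcript, and free RNA can add a UMI to a cell that does not. Among thinned choroid plexus-like cells, Lag3 was detected in 4.93%, Vsir in 4.66%, Havcr2 in 3.48% and Ctla4 in 2.77%. These are means of 5 libraries, including PT2385 pool 1 with few such cells. Whether these UMIs came from free RNA or from myeloid cells caught in the same droplet was not tested. The share of choroid plexus-like cells with 2 or more receptors was not computed.

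**Figure D2:**
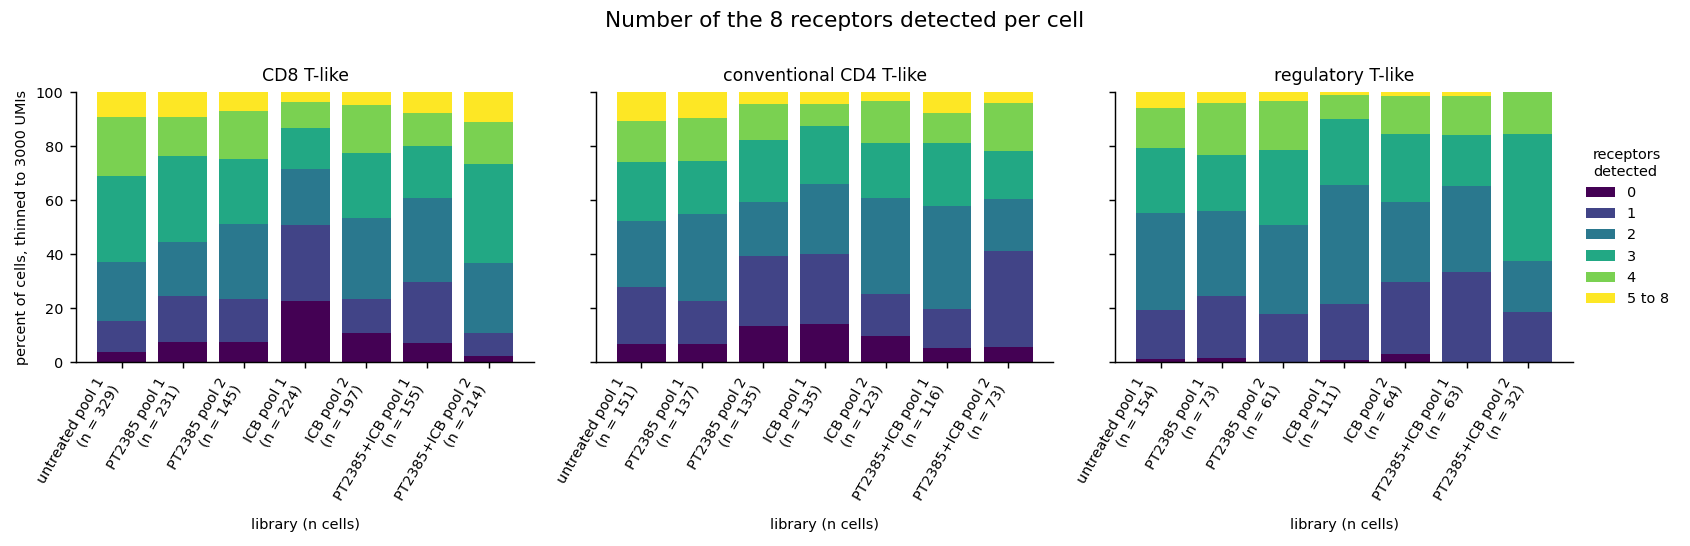
Share of cells (vertical axis, percent) by the number of the 8 receptors with at least 1 UMI after thinning to 3000 UMIs, in 3 T-like classes. Each bar is a library, with its number of cells under it. The dark segment for no receptor is largest in CD8 T-like cells of ICB pool 1, at 22.8%.

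The treatment groups did not separate by this share in CD8 T-like cells. The 4 libraries with PT2385 had 77.9% ± 8.06 and the 3 without 70.2% ± 18.7, a difference of 7.68 percentage points (exact two-sided permutation test p = 0.543, adjusted 0.600 over the 2 tests). The 4 libraries with ICB had 71.3% ± 16.8 and the 3 without 78.9% ± 5.15, a difference of -7.56 points (exact permutation p = 0.600). The smallest p that 4 libraries against 3 can give is 0.0286. Single libraries moved both differences. The PT2385 difference was -2.86 points without ICB pool 1, 3.88 without PT2385+ICB pool 2 and 15.0 without the untreated library. The ICB difference was -0.15 points without ICB pool 1, -4.61 without the untreated library and -13.5 without PT2385+ICB pool 2.

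Pairs of receptors in CD8 T-like cells were led by Pdcd1 with Ctla4, together in 45.9% ± 13.1 of thinned cells. Lag3 with Ctla4 followed at 28.0% ± 8.45, Havcr2 with Ctla4 at 25.1% ± 9.04 and Pdcd1 with Lag3 at 23.1% ± 7.61. Both antibody targets, Pdcd1 and Havcr2, were found together in 20.5% ± 7.39 of CD8 T-like cells (10.3% to 32.8%). A pair's share depends on how often each of its genes is detected, and the share for independent detection is not given here. In conventional CD4 T-like cells Pdcd1 with Ctla4 was the leading pair at 37.7% ± 7.97, and in regulatory T-like cells at 31.2% ± 7.25, where Ctla4 alone was found in 94.2% of cells.

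Havcr2 was more often found in CD8 T-like cells with a Pdcd1 UMI than in those without one, in 7 of 7 libraries. The shares in cells with and without Pdcd1 were 48.9% and 26.9% in the untreated library. They were 38.5% and 18.8%, then 44.2% and 39.7%, in the PT2385 libraries, and 31.1% and 5.33%, then 28.8% and 11.6%, in the ICB libraries. With both treatments they were 31.1% and 22.2%, then 31.8% and 28.1%. In PT2385 pool 2 and in both PT2385+ICB pools the Wilson 95% intervals of both shares overlapped, and in the other 4 libraries they did not. Lag3 was found in 40.7% ± 5.23 of cells with Pdcd1 and 23.8% ± 8.84 without, and Ctla4 in 81.8% ± 5.94 and 61.1% ± 15.9, each higher with Pdcd1 in 7 of 7 libraries. Btla went the other way, at 4.35% ± 2.55 and 7.57% ± 3.64, and was higher with Pdcd1 in 2 of 7. Tigit (17.3% and 13.2%) was higher in 6 of 7 libraries, Cd160 (11.3% and 10.6%) in 5 and Vsir (26.3% and 24.2%) in 4. In conventional CD4 T-like cells Havcr2 (29.9% and 12.1%), Lag3 (37.2% and 19.5%), Tigit and Ctla4 (84.4% and 69.7%) were higher with Pdcd1 in 7 of 7 libraries, whereas in regulatory T-like cells Havcr2, Lag3 and Ctla4 were higher in 3 of 7. These shares are descriptions of cells, which are not replicates, and carry no test.

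**Figure D3:**
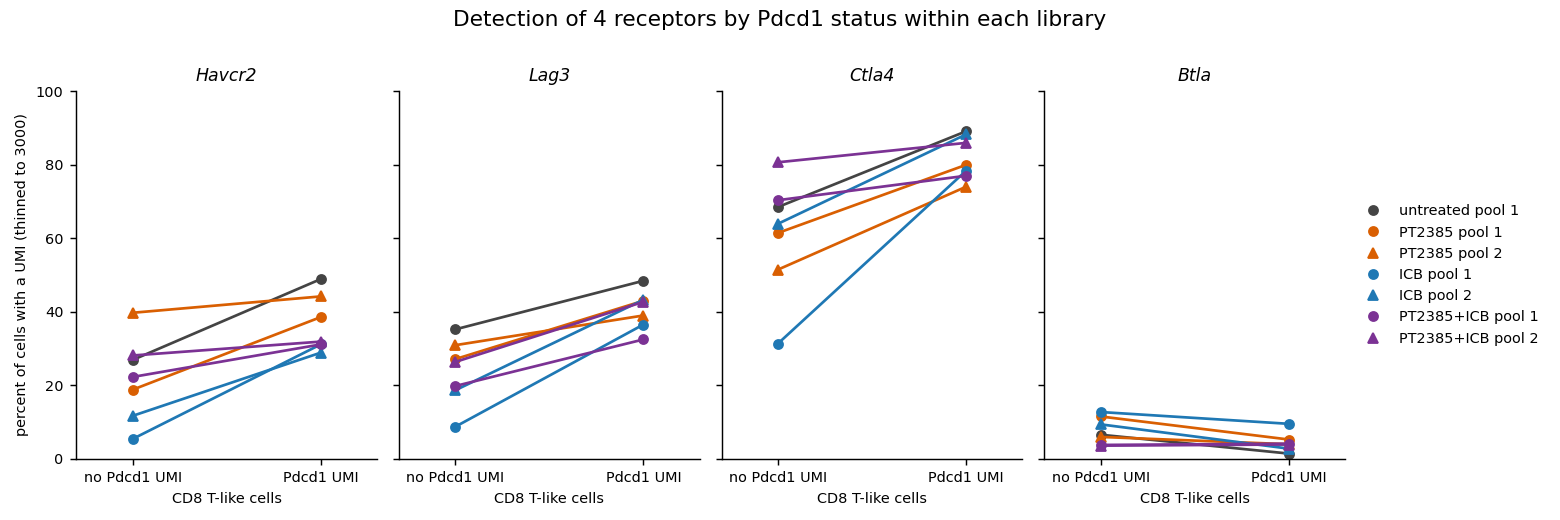
Share of thinned CD8 T-like cells with a UMI of Havcr2, Lag3, Ctla4 or Btla (vertical axis, percent) in cells without and with a Pdcd1 UMI. Each line joins both shares of a library. Every line rises for Havcr2, Lag3 and Ctla4, and no Btla share is above 12.7%.

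To see what CD8 T-like cells with both target transcripts shared beyond that choice, cells with a thinned UMI of Pdcd1 and of Havcr2 (23 to 108 per library) were compared with cells that had neither (41 to 142). Counts were summed per library and kind, and every gene but these 2 was tested with edgeR with the library as a block. 547 of 7778 genes passed (7.03%), 284 higher (3.65%) and 263 lower (3.38%) in the cells with both. Depth before thinning differed, with median UMIs of 8170.5 to 11621 in cells with both and 6454 to 8806 in cells with neither, and its part in the result was not tested. Monocyte/macrophage-like cells held 38.1% of all Havcr2 UMIs, and the CD8 gate allowed mononuclear myeloid UMIs below its limit. A Havcr2 UMI can therefore also mark a CD8 T-like cell with myeloid RNA. Myeloid marker levels in cells with both and with neither are not given here, and their part in the result was not tested.

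3 of the 6 other receptors passed. Lag3 was 189 to 343.5 CPM (median 269.5, n = 7) in cells with both and 44.4 to 129 CPM (median 99.8) in cells with neither, without overlap, a log2 difference of 1.53 ± 0.13 (edgeR adjusted p = 2.50e-07). Ctla4 was 860.5 to 1318 CPM against 352 to 789 CPM, also without overlap, a difference of 0.92 ± 0.14 (adjusted p = 0.000403). Btla was lower in the cells with both in 7 of 7 libraries, 4.03 to 21.9 CPM against 6.89 to 53.7 CPM, a difference of -1.68 ± 0.29 (adjusted p = 0.00118). All 3 kept their call in the 11 alternative analyses. Tigit was higher in 6 of 7 libraries without passing (0.66 ± 0.22, edgeR adjusted p = 0.0828), and at 0.81 it passed when the untreated library was left out. Cd160 (-0.24 ± 0.24) and Vsir (0.09 ± 0.14) did not pass.

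Genes of naive and memory T cells were lower in the cells with both target transcripts. Of the 12 genes in the stem or memory list, 10 could be tested and all 10 passed lower, with a median log2 difference of -3.09 beside -0.003 over all genes. Tcf7, the transcription factor that maintains stem-like T cells, was 0 to 8.07 CPM in cells with both and 66.8 to 249.6 CPM in cells with neither (-4.96 ± 0.28, edgeR adjusted p = 2.91e-09). Klf2 (-3.54 ± 0.26) and its target S1pr1 (-3.21 ± 0.26), which governs exit from tissue, Lef1 (-2.74 ± 0.23) and Ccr7 (-3.43 ± 0.43) were lower as well. The gene lists are described by their counts and carry no test of their own, and they were chosen with earlier results of these data known.

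Effector genes were higher. 9 of 13 passed higher and none lower, with a median of 1.39: the chemokines Ccl3 (2.34 ± 0.28, edgeR adjusted p = 2.55e-05) and Ccl4 (2.16 ± 0.25), the cytokine gene Ifng (1.45 ± 0.24), the pore-forming Prf1 (1.40 ± 0.17), the granule gene Nkg7 (0.78 ± 0.10) and Ccl5 (0.70 ± 0.12) among them. Of the other inhibitory or exhaustion-linked surface genes 6 of 9 passed higher, namely Cd200r1 (1.44 ± 0.26), Cd244a (1.15 ± 0.22), the ectonucleotidase Entpd1 (1.02 ± 0.20), the NK receptor gene Klrc1 (0.87 ± 0.13), the chemokine receptor Cxcr6 (0.82 ± 0.14) and Lilrb4a (0.72 ± 0.17). 2 of 8 costimulatory receptors passed, Tnfrsf9 (4-1BB, 1.43 ± 0.12) and Icos (0.72 ± 0.13), both higher. Among 16 exhaustion-linked transcription factors 5 passed higher, Nr4a2 (0.90 ± 0.16), Tbx21 (0.87 ± 0.23), Id2 (0.74 ± 0.16), Bhlhe40 (0.68 ± 0.16) and Nr4a3 (0.52 ± 0.14), and Ikzf2 passed lower (-0.83 ± 0.16). Of 8 ligand genes only Cd80 passed (0.97 ± 0.28), and of 12 signalling partners only Dgka, a diacylglycerol kinase (-0.71 ± 0.16). None of the 8 proliferation genes passed, with a median of -0.02. Whether the higher transcripts came from the T cells or from myeloid RNA in the same droplets was not tested.

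**Figure D4:**
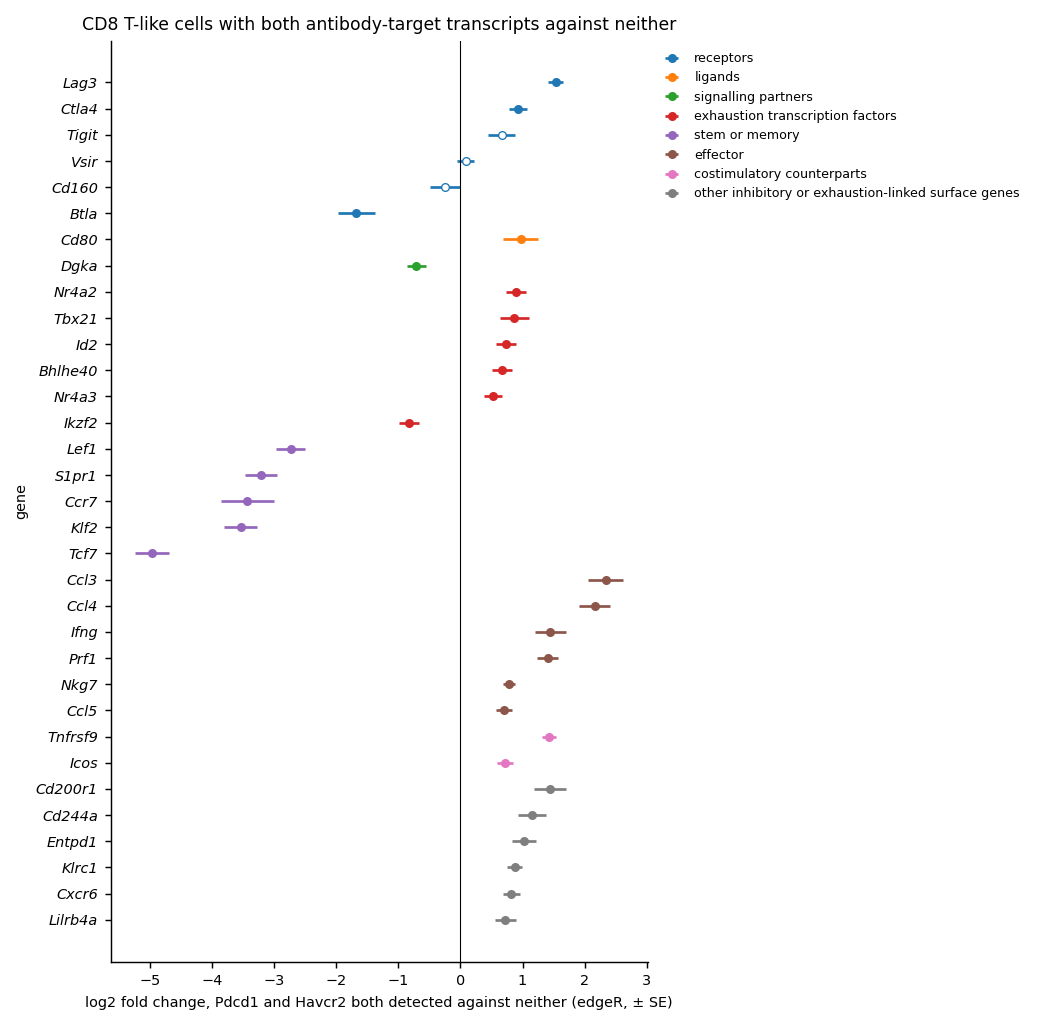
Log2 fold change (horizontal axis, points with bars of 1 SE, edgeR, 7 libraries) of the other receptors and of the list genes past adjusted p 0.05 (up to 6 per list and direction) in CD8 T-like cells with both Pdcd1 and Havcr2 detected against cells with neither. Colours mark the gene list and open points are receptors that did not pass. The stem or memory genes shown lie between -4.96 and -2.74, and effector genes between 0.70 and 2.34.

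Whether treatment moved the receptors was asked in the 7 classes with at least 30 cells in every library, which gives 56 possible results for each comparison. No receptor passed. PT2385 (4 libraries against 3) and ICB (4 against 3) were fitted together, and 45 of the 56 results passed the filter on low counts. None was called for PT2385, beside 0.280% of all gene results in these classes, nor for ICB, beside 0.0377%. For the combination against the single untreated library, and for the interaction of both treatments, none of 49 was called, beside 0.0485% and 0.00393%. At an unadjusted p under 0.05 there were 8, 5, 8 and 7 receptor results in that order. The share of all genes at that unadjusted level is not given here, so these counts are not read as a result. DESeq2 called 1, 3, 0 and 0 receptor results, beside 1.48%, 0.282%, 0.291% and 0.0695% of all gene results. The untreated group is 1 library, so its spread is assumed to be like that of the other groups.

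Havcr2, whose protein is an antibody target, lay lower in every ICB library than in every other library in CD8 T-like cells, without passing the test. It measured 287 CPM (TMM-scaled) in the untreated library, 204 and 249.8 CPM with PT2385, 84.0 and 115 CPM with ICB, and 159.6 and 162 CPM with both. The 4 ICB libraries (mean 130.1 ± 37.7) did not overlap with the 3 others (247 ± 41.7), as held in that direction for 3.06% of the 10239 genes tested, of which edgeR called 0.0293%. The log2 difference was -0.92 ± 0.21 (edgeR, unadjusted p = 0.00130, adjusted p = 0.667). It ranged from -1.11 to -0.50 over 14 alternatives, in which the adjusted p ran from 1.14e-08 without a filter on low counts to 1.00, and DESeq2 called it at an adjusted p of 0.0134. Leaving out the untreated library gave -0.50 (edgeR adjusted p = 0.951). The thinned share of CD8 T-like cells with Havcr2 was 41.6% untreated, 30.3% and 42.1% with PT2385, 13.8% and 21.3% with ICB, and 26.5% and 30.8% with both. By this share the groups overlapped, since PT2385+ICB pool 2 lay above PT2385 pool 1. Monocyte/macrophage-like cells carry Havcr2 too, and the 11 mononuclear myeloid markers summed to 194 to 283 CPM in the CD8 T-like cells of ICB libraries and 303 to 368 CPM in the others, with 9 of 11 lower in mean and none at 0 in every library. The same sum was 20289 to 26554 CPM in monocyte/macrophage-like cells, and its part in the Havcr2 difference was not tested. The 8 microglia markers, of a class with more Havcr2, summed to 43.0 to 63.6 CPM in the CD8 T-like cells of ICB libraries and 35.1 to 51.9 CPM in the others, with 0 of 8 lower in mean and 2 higher in every ICB library. The 6 cDC1 markers, of the class with the highest mean Havcr2, summed there to 79.8 to 158 CPM with ICB and 87.1 to 149 CPM without. These ranges overlapped, with 5 of 6 markers lower in mean with ICB and 1 lower in every ICB library. The part of the microglia and cDC1 markers in the Havcr2 difference was not tested. In CD8 T-like cells the 12 stem or memory genes summed to 745 to 2681 CPM with ICB and 805 to 951 CPM without. These ranges overlapped, and 0 of 12 genes were lower in mean with ICB. ICB pool 1, the library with the lowest Havcr2, was also the one with the highest Tcf7 and Lef1. The part of these genes in the Havcr2 difference was not tested. Choroid plexus markers were higher in every ICB library than in every other in each of the 7 classes, and in CD8 T-like cells they summed to 49.3 to 254 CPM in ICB libraries and 2.79 to 11.4 CPM in the others. Their part in any ICB result was not tested. Havcr2 itself measured 24.2 ± 19.3 CPM in choroid plexus-like cells (n = 5).

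Pdcd1, whose protein is the other antibody target, did not separate by ICB in CD8 T-like cells. It measured 496 CPM untreated, 359.7 and 328 with PT2385, 225 and 378 with ICB, and 293 and 486 with both, so the groups overlapped. The log2 difference was -0.19 ± 0.25 (edgeR adjusted p = 0.955), and it was 0.17 when the untreated library was left out. In conventional CD4 T-like cells Pdcd1 measured 272 to 357 CPM without ICB and 259.7 to 389 with it, a difference of -0.08 ± 0.16 (adjusted p = 0.928).

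**Figure D5:**
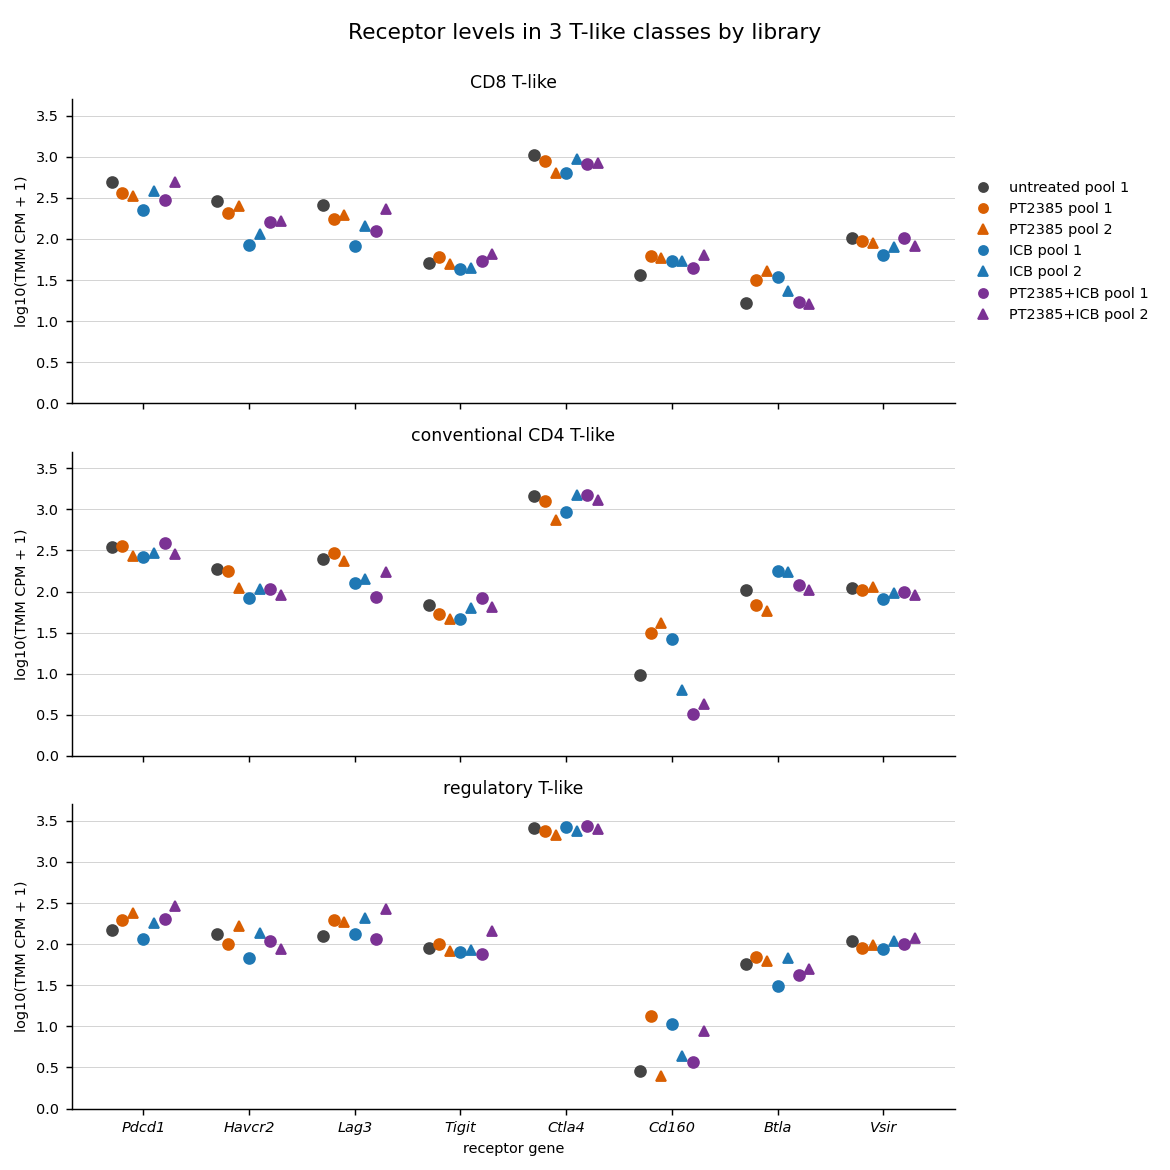
Level of each receptor (vertical axis, log10 of TMM-scaled CPM + 1) in CD8, conventional CD4 and regulatory T-like cells, each point a library coloured by group. For Havcr2 in CD8 T-like cells the 4 points with ICB (84.0 to 162 CPM) lie below the 3 without (204 to 287 CPM).

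In conventional CD4 T-like cells Havcr2, Lag3 and Vsir were each lower in all ICB libraries than in all others, as were 4.31% of the 8886 genes tested. Lag3 measured 246 CPM untreated, 296 and 232 with PT2385, 126 and 142 with ICB, and 84.1 and 172 with both, a log2 difference of -0.99 ± 0.20 (edgeR adjusted p = 0.107). Without PT2385+ICB pool 2 the difference was -1.22 and passed, and DESeq2 also called it. Havcr2 differed by -0.72 ± 0.19 (edgeR adjusted p = 0.303), with 110.0 to 185 CPM without ICB and 83.0 to 107 with it. The 11 mononuclear myeloid markers summed in this class to 245 to 347 CPM with ICB and 271 to 382 without. 6 of 11 were lower in mean. The 8 microglia markers summed to 23.9 to 68.0 against 18.2 to 40.2 CPM, with 1 lower in mean. The 12 stem or memory genes summed to 1560 to 2476 against 1217 to 1648 CPM, with 1 lower in mean. Their part in these differences was not tested. Btla did not pass for ICB at 0.80 ± 0.15 (edgeR adjusted p = 0.0686, from 0.00287 to 0.219 over 14 alternatives). It measured 102 CPM untreated, 68.6 and 56.2 with PT2385, 176 and 169.6 with ICB, and 120.5 and 102.0 with both. The untreated library and PT2385+ICB pool 2 met at the border between the groups.

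Genes of the pathway lists passed in the same cells. With ICB, 5 of 13 effector genes were lower in conventional CD4 T-like cells, where 0.169% of all genes passed: Ccl3 (-2.75 ± 0.28, edgeR adjusted p = 0.000841), Ccl4 (-2.37 ± 0.20), Gzma (-2.02 ± 0.23), Ifng (-1.68 ± 0.20) and Nkg7 (-1.08 ± 0.15). Tcf7 was higher (1.16 ± 0.15), 1 of 11 stem or memory genes tested. Over all lists and the 7 classes, 1 gene result was higher and 5 lower of 554 tested for ICB. For PT2385 it was 3 higher and 6 lower of 554, with 7 of these in NK-like cells (1.09% of all genes called) and 2 in monocyte/macrophage-like cells (0.661%). For the combination against untreated it was 0 and 4 of 575, namely the granzyme genes Gzmc and Gzmf in CD8 T-like cells (0.0732% of all genes called) and Ccl3 and Ccl4 in conventional CD4 T-like cells (0.0522%). For the interaction it was 0 and 0 of 575.

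With PT2385, Pdcd1 in regulatory T-like cells lay higher in every PT2385 library than in every other, without passing. It measured 195 and 241 CPM with PT2385 and 203 and 287 with both, against 149 untreated and 115 and 179 with ICB alone, a log2 difference of 0.65 ± 0.18 (edgeR adjusted p = 0.317). No overlap in that direction held for 3.68% of the 8770 genes tested, and edgeR called 0.0114%. In migratory dendritic-like cells, which carry antigen to lymph nodes, Btla was 101 to 159.9 CPM with PT2385 and 162 to 207 without (-0.61 ± 0.16, adjusted p = 0.419), and Havcr2 was 3.23 to 18.8 against 33.4 to 35.5 CPM (-1.36 ± 0.32, adjusted p = 0.316), on 2 to 59 UMIs per library. No overlap downwards held there for 3.79% of 8605 genes, and edgeR called 0.0116%. In NK-like cells Havcr2 was also lower in every PT2385 library, 3.49 to 7.81 CPM against 8.48 to 12.9 CPM, as were 5.88% of 9000 genes. In monocyte/macrophage-like cells Btla differed by -1.57 ± 0.34 (edgeR adjusted p = 0.0752), at levels of at most 2.07 CPM, and passed without ICB pool 2, as did Havcr2 there (-0.49 ± 0.17, and -0.67 without that library). No overlap downwards held for 9.07% of 14059 genes in that class. In microglia-like cells Havcr2 was 159 to 192 CPM with ICB and 203 to 211 CPM without, while no overlap downwards held for 5.02% of 12107 genes and edgeR called 0.00826%.

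The receptor result with the smallest adjusted p for the interaction was Btla in CD8 T-like cells. It measured 15.6 CPM untreated, 30.7 and 39.2 with PT2385, 33.7 and 22.4 with ICB, and 16.1 and 15.2 with both, so the single treatments lay above the untreated library and the combination lay next to it. The interaction was -2.005 ± 0.42 on the log2 scale (edgeR adjusted p = 0.284), and it passed without ICB pool 2. For the combination against untreated, Havcr2 in CD8 T-like cells differed by -0.84 ± 0.21 (adjusted p = 0.315), and Havcr2 in migratory dendritic-like cells passed without PT2385+ICB pool 2 (-3.34), which left 1 combination library with 2 Havcr2 UMIs.

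The genes most like each receptor across the 15 classes were found by Pearson's r of the mean log2(CPM + 1), among 10194 genes outside the gate markers, as a description over classes from the same libraries. Tigit was closest to Sh2d1a (SAP, a lymphocyte signalling adaptor, r = 0.980), Gprin3 (0.975) and Thy1 (0.973). Cd160 was closest to the NK receptor genes Klrc3 (0.988), Klrc2 (0.986) and Klrc1 (0.973), neighbours of one family whose reads can be hard to tell apart. Ctla4 was closest to Cd2 (0.945), 4930417O13Rik (0.937) and the exhaustion factor Tox (0.935), and Pdcd1 to Gm39323 (0.948), Gm47015 (0.943) and Trat1 (0.933), a T cell receptor adaptor. The remaining receptors had weaker counterparts. Vsir was closest to Ski (0.929), Tfpi (0.909) and Map11 (0.896), and Btla to Dpp4 (0.887), Cs (0.860) and Mthfd2 (0.853). Lag3 was closest to Galk2 (0.862), Rab6b (0.840) and Saraf (0.838), and Havcr2 to Smim3 (0.791), Spint1 (0.774) and Dpysl2 (0.763).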

How the data were processed

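The tables hold UMI counts per gene and barcode, deposited by the authors for barcodes already called as cells. Per the file headers Cell Ranger 7.0.0 made them, while the submitters' processing notes name Cell Ranger 2.2.0, GRCm39 and Seurat 5. Levels (CPM) are counts summed over a library's cells of a class and scaled to a common total.

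Gates counted marker UMIs: at least 2 Cd3 UMIs and under 15 mononuclear myeloid UMIs per 10000 for T-like cells, then Cd8a or Cd8b1 without Cd4 or Foxp3 (CD8), Foxp3 without Cd8 (regulatory) or Cd4 without either (conventional CD4). Conventional CD4 T-like cells also had to show fewer than 2 of Foxp3, Il2ra, Ikzf2 and Ikzf4. This limit, not set for CD8 T-like cells, bears on every comparison with the conventional CD4 class. Other classes needed 2 to 5 markers, or 16 marker UMIs per 10000 for monocyte/macrophage-like and microglia-like cells. No doublet caller was run. Gates exclude cells with markers of some other lineages, but the choroid plexus gate sets no limit on myeloid markers. An alternative drops cells above 3 times the median UMIs of their class and library. Gate thresholds were set after marker distributions were seen. Members and gene lists were chosen with earlier results of these data known.

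Counts per library and class were tested in edgeR 4.0.16 (TMM, filterByExpr, quasi-likelihood, Benjamini-Hochberg adjustment over all genes tested, threshold 0.05; R 4.3.3), with DESeq2 1.42.0 as an alternative, after checks on simulated data. Standard errors were derived from the F statistic (log2 fold change divided by its root). Named genes are all members, up to 6 list genes per list and direction by smallest p among those passing, and for each member the 3 genes with the highest r. 1 list gene is counted but not reported by name here. Pool numbers follow record order. Libraries pool mice, so p-values of treatment comparisons measure the spread between pools. In the fits with the library as a block, they measure how the difference within a library varies between libraries. Intervals cover counting error only. Shares and levels use libraries with at least 10 cells of a class. Libraries held 4847 to 7961 kept cells, with median UMIs of 8388 to 12005.5.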

Additional observations from a re-analysis of the deposited data

How the results depend on the processing

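Of 718 combinations of a receptor result with an alternative, 686 kept direction and side of the threshold, 27 newly passed, 2 no longer passed and 3 reversed. The receptor results followed here were chosen after their values were seen. The reversed ones were ICB on Pdcd1 in CD8 T-like cells without the untreated library (0.17, and -0.48 to 0.17 over left-out libraries) and Vsir in cells with both target transcripts, with cells chosen before thinning (-0.17) and without PT2385 pool 1 (-0.015, and -0.015 to 0.16 over left-out libraries). 16 of the 27 came without a filter on low counts. The causes were not tested. No paired analysis was possible because pool numbers follow record order and pair no samples.

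With DESeq2 the treatment calls over all genes were 1063 for PT2385 (main 201), 202 for ICB (27), 222 for the combination (37) and 53 for the interaction (3), and without a filter 1913, 1432, 1017 and 992. The group model gave 114 for PT2385, leaving out high-depth cells gave 59 for ICB, and stricter gates gave 5 for the interaction. Leaving out 1 library gave 41 (untreated) to 993 (ICB pool 2) calls for PT2385, with all 7 values over 1.5 times from 201, and 22 to 456 for ICB (456 without ICB pool 2, 82 without untreated). It gave 25 to 325 for the combination (325 and 274 without ICB pools 1 and 2, 103 without PT2385+ICB pool 2, 62 and 57 without PT2385 pools 1 and 2) and 1 to 346 for the interaction (346 and 207 without ICB pools 1 and 2, 53 and 10 without PT2385+ICB pools 2 and 1, 13 and 1 without PT2385 pools 1 and 2). Receptor calls, 0 in each, became 1 for PT2385 and 3 for ICB with DESeq2, and 5, 6, 2 and 6 without a filter. Over left-out libraries they ranged from 0 to 2 for PT2385 and from 0 to 1 for ICB. The numbers tested without a filter and with a library left out are not given here, so these receptor counts are not read as a result.

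Gene calls between cells with both and neither target transcript were 547, and 328 with DESeq2, 1989 with cells chosen before thinning, and 386 to 557 over left-out libraries. For cDC1-like against cDC2-like cells they were 1580, and 1033 with DESeq2 and 884 with stricter gates, with 2 receptors called without a filter, and 1 to 2 over left-out libraries. For regulatory against conventional CD4 T-like cells they were 2308, and 1477 with DESeq2. The PT2385 difference in cells with 2 or more receptors ranged from -2.86 to 15.0 points over left-out libraries, and the ICB difference from -13.5 to -0.15.

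Detection shares moved with the depth setting. Each thinned setting left out cells with fewer UMIs than its target, so the settings differ in their cells as well as in depth. Vsir in microglia-like cells was lower unthinned than at 5000 UMIs. Thinned to 2000 UMIs, to 5000 UMIs and unthinned, they were 51.9%, 77.8% and 96.5% for Btla and 48.9%, 74.1% and 93.1% for Havcr2 in cDC1-like cells, 36.8%, 66.2% and 69.8% for Lag3 and 71.6%, 93.6% and 92.5% for Vsir in microglia-like cells, 20.1%, 32.7% and 52.3% for Tigit in regulatory T-like cells, and 8.09%, 21.2% and 22.0% for Cd160 in NK-like cells. Ctla4 in regulatory T-like cells was 96.7% at 5000 UMIs and 97.7% unthinned, and Pdcd1 in CD8 T-like cells 71.8% unthinned.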

Other observations

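In NK-like cells, which carry Cd160 and Tigit but little Pdcd1, PT2385 went with higher Cxcr6 (a log2 fold change of 1.24 ± 0.17, edgeR adjusted p = 0.00437), Cd200r1 (1.48 ± 0.24) and Klrg1 (1.38 ± 0.31), 3 of 9 other inhibitory or exhaustion-linked surface genes tested. Lower were Bach2 (-0.62 ± 0.09), Inpp5d (SHIP-1, -0.52 ± 0.08), Nr4a2 (-0.51 ± 0.12) and Cblb (-0.36 ± 0.08), the last with an adjusted p of 0.0492. In monocyte/macrophage-like cells Ccl3 (-0.80 ± 0.11) and Bhlhe40 (-0.77 ± 0.07) were lower with PT2385. PT2385 calls over all genes tested were 1.09% of 9000 in NK-like and 0.661% of 14059 in monocyte/macrophage-like cells. Proliferation genes passed higher in 8 of 8 in regulatory and in CD8 T-like cells, each against conventional CD4 T-like cells, with median log2 differences of 1.25 and 1.35. Of all genes tested, edgeR called 13.4% of 9371 and 12.7% of 10055 higher in these comparisons. Median UMIs per cell were 8599 in regulatory, 7966 in CD8 and 6663.5 in conventional CD4 T-like cells. The conventional CD4 gate also limited the number of regulatory T markers. The part of depth and of this gate in the proliferation result was not tested.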
